A study of Mus musculus with 6 samples.

Results

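Chemokine transcripts are described here in the ventral lumbar spinal cord of SOD1G93A mice, a transgenic model of amyotrophic lateral sclerosis with mutant superoxide dismutase. The set held 10 genes, named by their symbols. They are a part of the chemokine family, chosen with earlier results of these data known. The set comprised the CC chemokines Ccl2, Ccl3, Ccl4, Ccl5, Ccl6, Ccl9 and Ccl12 and the CXC chemokines Cxcl10, Cxcl13 and Cxcl16. All 10 were found among the 28162 genes of the deposited table, and 9 were among the 17480 genes that passed the filter on low values (3 or more libraries with a normalized count of 10 or above). All animals were SOD1G93A; they were injected intrathecally with adeno-associated virus (AAV) at day 74 of age, and the cord was taken at day 104. The virus carried green fluorescent protein in the control group (AAV-GFP, 3 libraries) and NDNF, a secreted neuron-derived neurotrophic factor, in the other (AAV-NDNF, 3 libraries). There were no wild-type, uninjected or earlier animals, so all levels are those of a diseased, virus-injected cord. The sources used here do not give the vectors' promoter and dose, or say whether a library held 1 animal or a pool.

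Chemokines are small secreted proteins that direct the movement of leukocytes through G protein-coupled receptors on those cells. CC chemokines carry their first cysteines side by side, whereas CXC chemokines have another residue between them. In the diseased cord, microglia, border macrophages, astrocytes and infiltrating lymphocytes are all known sources. Several of these genes are classical targets of interferon and NF-kB signalling.

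The coding sequences below show the family difference in the mouse transcripts (GENCODE M21, mm10), because it is what divides the 10 genes into the CC and CXC groups used throughout. Each line, for 9 of the genes, is a 33-base stretch in the reading frame, written 5′ to 3′, and the capitals mark the first pair of cysteine codons (TGC or TGT). In the 7 CC genes the codons are adjacent, and in the 3 CXC genes 1 codon lies between them.
Ccl2: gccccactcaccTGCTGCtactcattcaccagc
Ccl12: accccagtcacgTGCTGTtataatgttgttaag
Ccl4: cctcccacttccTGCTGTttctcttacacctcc
Ccl5: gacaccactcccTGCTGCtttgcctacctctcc
Ccl6: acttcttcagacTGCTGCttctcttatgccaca
Ccl9: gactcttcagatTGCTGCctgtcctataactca
Cxcl10: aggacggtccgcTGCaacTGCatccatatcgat
Cxcl13: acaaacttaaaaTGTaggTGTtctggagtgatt
Cxcl16: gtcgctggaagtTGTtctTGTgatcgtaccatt

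Although the family is related in sequence, the transcripts are distinct at the length of a short read. None of the 50-base words in the transcripts of 9 of the genes occurs in a transcript of any other gene. In Ccl9 1.97% of the words did, all shared with genes outside the family. The genes lie close together in the mouse genome (mm10). Ccl2 (chromosome 11, 82035571 to 82037453, plus strand) and Ccl12 (82101845 to 82103400, plus strand) stand in one cluster of chromosome 11. Ccl5 (83525778 to 83530518), Ccl9 (83572919 to 83578636), Ccl6 (83587882 to 83593087) and Ccl3 (83647844 to 83649355), on the minus strand, and Ccl4 (83662584 to 83664683), on the plus strand, stand in another cluster of the same chromosome. Cxcl16 (70453983 to 70459984, minus strand) lies apart on chromosome 11. Cxcl10 (92346638 to 92348889, minus strand) and Cxcl13 (95956951 to 95961068, plus strand) are on chromosome 5. Exons of Art3 fall within the span of Cxcl10, and exons of Zmynd15 within that of Cxcl16, both on the opposite strand. The sources used here give no strand setting for the counting, and the values of Cxcl10 and Cxcl16 are uncertain to that extent.

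Values below are normalized read counts, which are the authors' gene counts divided by 1 size factor per library; ± is the SD over n = 3 libraries. Log2 fold changes subtract the control mean from the AAV-NDNF mean of log2(value + 1), a scale that understates the ratio of low genes. They come with a standard error (SE) and, from limma, a two-sided p adjusted over all genes tested. The libraries held 15335789 to 20060987 assigned reads. Ndnf itself was 128 to 171 in the controls and 674 to 7077 after AAV-NDNF, with AAV-NDNF library 3 lowest of the 3. AAV-GFP library 2 stood apart among controls: its interferon response score (mean log2 level of 19 induced genes relative to the control mean) was −1.13, against 0.56 and 0.57 in the other two, and its dorsal horn neuron score was −1.98, against 0.95 and 1.03. Transcripts of the 6 motor neuron markers summed to 6108 to 7419 in controls and 6347 to 7329 after AAV-NDNF, so the labelled ventral cord carried its defining neurons in every library. Dorsal horn markers were detected too, except Tac2, which was at 0 in AAV-GFP library 2.

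Across the set, each of the 9 testable chemokines had a lower mean after AAV-NDNF, but the differences were mostly within the spread between libraries. The clearest were Ccl5, which attracts T cells and macrophages, at 0.24 times the control mean, and Ccl6, a myeloid chemokine, at 0.675 times. Cxcl16, at 0.772 times, also separated the groups library by library. For Ccl2, Ccl3, Ccl4, Ccl9, Ccl12 and Cxcl10 the groups overlapped. The median log2 fold change of the 9 was −0.44, where it was 0.00083 over all 17480 genes tested, of which 49.9% were below 0.

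No chemokine was called over all genes by limma with a Benjamini-Hochberg adjusted p under 0.05; 0 of 17480 genes were (percent called 0, lower or higher), and 818 (4.68%) had an unadjusted p under 0.05 in either direction. Ccl5 and Ccl6, 2 of the 9, had an unadjusted p under 0.05 and were lower, where 3.53% of all tested genes did. The groups did not overlap, with each AAV-NDNF library below each control, for Ccl5, Ccl6 and Cxcl16, 3 of the 9, where 5.5% of all tested genes showed this and 4.26% showed the opposite. These p-values measure the spread between libraries described only as biological replicates, and an exact two-sided permutation test of 3 against 3 libraries cannot go below 0.1. In bulk tissue, fewer cells of a type and less RNA per cell cannot be told apart.

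**Figure D1:**
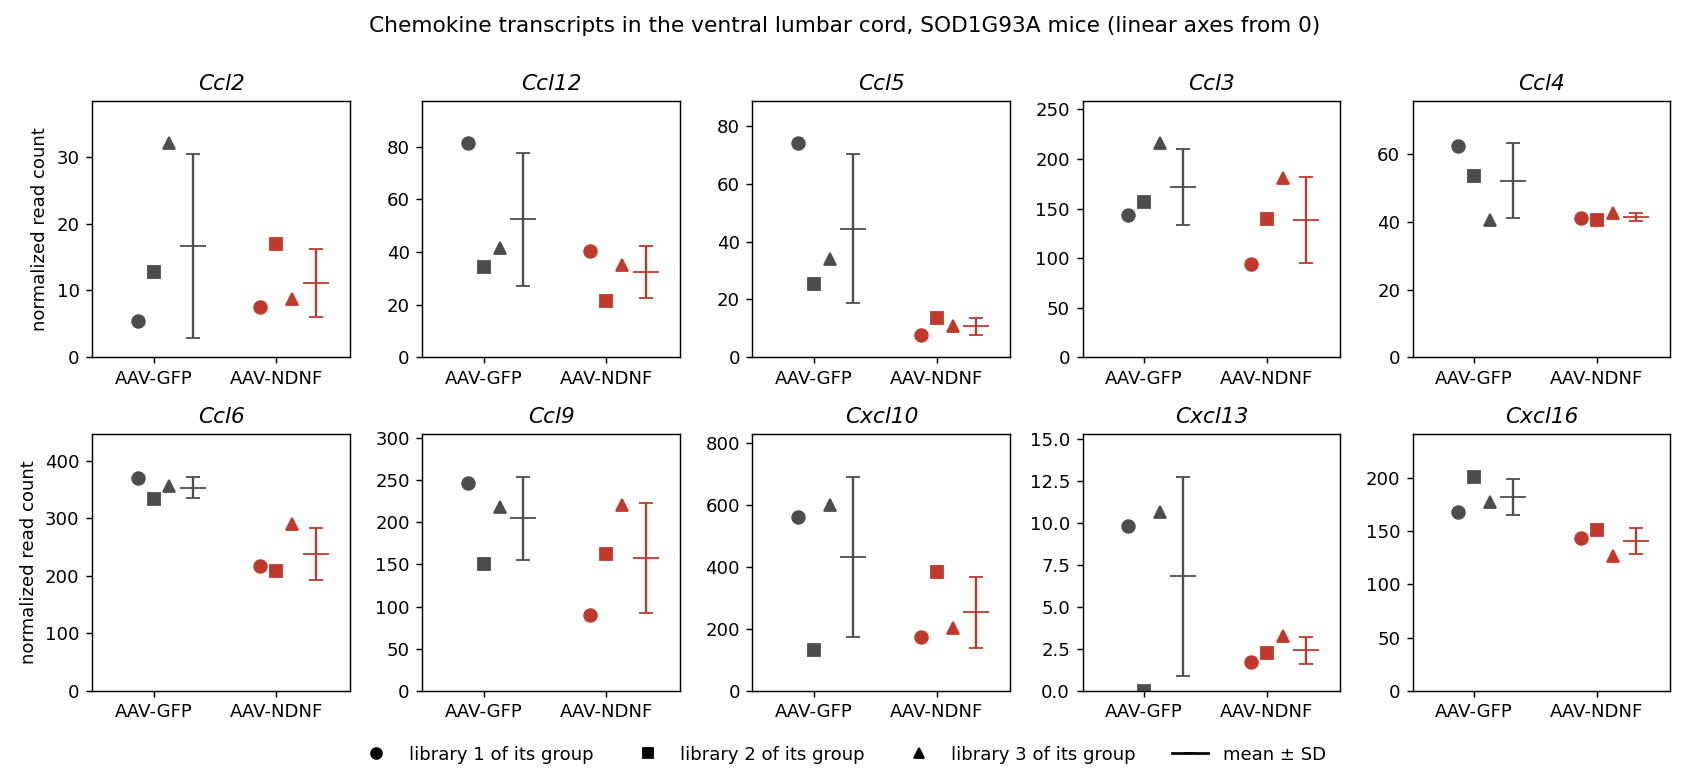
Normalized read counts of the 10 chemokines in the 3 AAV-GFP libraries (grey) and the 3 AAV-NDNF libraries (red), one panel per gene with a linear axis from 0; symbols mark the library number within its group, and the bar beside them is the mean ± SD. The groups separate for Ccl5, Ccl6 and Cxcl16, and AAV-GFP library 2 (grey square) sits at 133 for Cxcl10, far below the other controls at 563 and 600.3.

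Cxcl13 was too low to compare. This chemokine directs B cells through the receptor CXCR5 and organises lymphoid follicles. It had 11, 0 and 10 reads in AAV-GFP libraries 1 to 3 and 2, 2 and 3 reads after AAV-NDNF. The 0 reads of AAV-GFP library 2 have an exact 95% Poisson interval of 0 to 3.69 reads, and that control lay below the AAV-NDNF libraries while the other two lay above them. Exact 95% Poisson intervals, which cover counting error only, ran from 4.79 to 18.4 reads around the 10 of AAV-GFP library 3 and from 0.619 to 8.77 around the 3 of AAV-NDNF library 3, so even these neighbours overlapped. The authors' deposited table lists a log2 fold change of −1.52 with a p-value of 0.261 for Cxcl13. Its receptor Cxcr5 was at 0 in 5 libraries and 4.38 in AAV-NDNF library 3. No B cell marker differed with an unadjusted p under 0.05 among the 4 of 7 that could be tested, and Ms4a1, which encodes CD20, was at 0 in 5 libraries.

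Ccl2 (MCP-1), the main attractant of monocytes bearing the receptor CCR2, passed the filter only just. Its reads were 6, 13 and 30 in AAV-GFP libraries 1 to 3 and 9, 15 and 8 in AAV-NDNF libraries 1 to 3. The normalized values were 16.7 ± 13.8 in controls and 11.1 ± 5.07 after AAV-NDNF, with the highest and the lowest of the 6 libraries both in the control group. The log2 fold change was −0.31 (SE 0.67, 95% interval −1.78 to 1.15), and it was 0.29 without AAV-GFP library 3. No difference was detectable at this depth. Exact 95% Poisson intervals were 20.2 to 42.8 reads around the 30 of AAV-GFP library 3 and 2.2 to 13.1 around the 6 of AAV-GFP library 1.

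Ccl12 (MCP-5), a second CCR2 ligand of mice, was more abundant than Ccl2. It stood at 81.2, 34.2 and 41.7 in AAV-GFP libraries 1 to 3 and at 40.4, 21.4 and 35.1 after AAV-NDNF. AAV-GFP library 1 was highest, and the other controls lay among the treated libraries or just above them. The log2 fold change was −0.63 (SE 0.40, limma adjusted p = 0.997, exact permutation p = 0.3), and without AAV-GFP library 1 it was −0.27. Ccr2, the receptor of both ligands, did not pass the filter, with 12.5, 5.86 and 6.41 in controls, against 1.68, 9.01 and 1.10 after AAV-NDNF.

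Ccl5 (RANTES), an attractant of T cells and macrophages made mainly by lymphocytes and activated glia, showed the lowest AAV-NDNF to AAV-GFP ratio of the 9. It stood at 74.1, 25.4 and 34.2 in AAV-GFP libraries 1 to 3 and at 7.57, 13.5 and 11.0 in AAV-NDNF libraries 1 to 3. Each treated library was below each control, and the highest control was library 1. The means were 44.6 ± 26.0 and 10.7 ± 2.98, and the log2 fold change was −1.85 (SE 0.48, 95% interval −2.91 to −0.79). The limma p was 0.00275 and the adjusted p 0.53, with an exact permutation p of 0.1. The authors' deposited table gives −2.08 with a DESeq2 adjusted p of 0.105. Ccl5 had 83, 26 and 32 reads in AAV-GFP libraries 1 to 3 and 9, 12 and 10 in AAV-NDNF libraries 1 to 3. Exact 95% Poisson intervals ran from 17.0 to 38.1 reads around the 26 and from 6.2 to 21.0 around the 12. By counting error alone, the nearest libraries of the 2 groups therefore overlapped.

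Leaving out AAV-GFP library 1, the control with most Ccl5, moved the difference to −1.42 (limma adjusted p = 0.999), still with an unadjusted p under 0.05. T cell markers were highest in that same library. The 11 markers summed to 243, 104 and 181 in the 3 controls, in library order, against 114, 96.9 and 105 after AAV-NDNF. Of these markers 4 could be tested, with 3 below 0 and 1, Lck, above (log2 fold change 0.14). Trac, the marker with the highest mean level, was at −0.26 with overlapping groups. Cd8a, the coreceptor of cytotoxic T cells, was the 1 of these 4 with an unadjusted p under 0.05. Over all tested genes 3.53% were lower with such a p. Cd8a was 32.1, 9.77 and 28.8 in controls, against 20.2, 0 and 4.38 after AAV-NDNF, so its groups overlapped. Cd3d, Cd3e and Cd3g, chains of the T cell receptor complex, did not pass the filter. Cd3d was 16.1, 1.95 and 0 in controls, against 0.841, 1.13 and 0 after AAV-NDNF. Cd3e was 19.6, 3.91 and 15.0, against 5.05, 4.50 and 1.10. Cd3g was 18.7, 9.77 and 21.4, against 5.05, 6.76 and 0. These chains were too low to compare. The part of T cells in the Ccl5 difference was not tested.

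Ccl3 (MIP-1α), a ligand of CCR1, and Ccl4 (MIP-1β) attract myeloid cells and T cells and are induced in activated microglia. Ccl3 stood at 144, 156 and 216 in AAV-GFP libraries 1 to 3 and at 94.2, 139.7 and 181 after AAV-NDNF. The ranges overlapped between 144 and 181 (log2 fold change −0.34, SE 0.26, limma adjusted p = 0.997, exact permutation p = 0.4). Ccl4 stood at 62.5, 53.7 and 40.6 in controls, against 41.2, 40.5 and 42.7 after AAV-NDNF. The treated libraries were nearly level with each other and with AAV-GFP library 3 (log2 fold change −0.31, SE 0.29, limma adjusted p = 0.997, exact permutation p = 0.3). The 95% intervals, −0.91 to 0.23 for Ccl3 and −0.94 to 0.33 for Ccl4, both include 0. Without AAV-NDNF library 1 the Ccl3 difference was −0.09, and without AAV-NDNF library 3 it was −0.56, with an unadjusted p under 0.05 (limma adjusted p = 0.749). Leaving out 1 library moved the Ccl4 difference to between −0.47 (without AAV-GFP library 3) and −0.17 (without AAV-GFP library 1).

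Ccl6 and Ccl9 are myeloid CC chemokines of rodents that act through CCR1. Ccl6 stood at 370.5, 333 and 356 in AAV-GFP libraries 1 to 3 and at 216, 208 and 290.3 in AAV-NDNF libraries 1 to 3. The controls lay within 1.11-fold of each other and the treated libraries below all of them. The means were 353 ± 18.7 and 238 ± 45.2, and the log2 fold change was −0.58 (SE 0.17, 95% interval −0.94 to −0.22). The limma p was 0.00486 and the adjusted p 0.615, with an exact permutation p of 0.1. With limma-voom and quality weights, 1 of the 11 alternatives run other than leaving out libraries, Ccl6 was called (log2 fold change −0.73, adjusted p = 0.0186). That setting called 165 of the 17480 genes, where the main fit called 0. Over the other alternatives and omissions of a library the adjusted p of Ccl6 stayed above the threshold, and its log2 fold change was between −0.73 and −0.49.

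For Ccl9 the values were 246, 150.5 and 218 in AAV-GFP libraries 1 to 3 and 90.0, 162 and 220.2 after AAV-NDNF. AAV-NDNF library 3 was level with AAV-GFP library 3, and AAV-NDNF library 1 was lowest (log2 fold change −0.44, SE 0.31, limma adjusted p = 0.997, exact permutation p = 0.5). Without AAV-NDNF library 3 the difference was −0.73 (limma adjusted p = 0.692), and without AAV-NDNF library 1 it was −0.09. AAV-NDNF library 3, which had the least Ndnf transcript of its group, was the highest of its group for Ccl3, Ccl4, Ccl6 and Ccl9. For Ccl4 this rested on 42.7 against 41.2 and 40.5, and for Cxcl16 library 3 was the lowest. AAV-NDNF library 2, which had the most Ndnf, was also the highest for 4 chemokines (Ccl2, Ccl5, Cxcl10 and Cxcl16). AAV-NDNF library 1 was the lowest of its group for 5 of the 9 chemokines. With 3 treated libraries, a relation to the Ndnf level could not be tested.

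Cxcl10 (IP-10), an interferon-induced attractant of T cells bearing CXCR3, was the chemokine of the set with the highest mean level and a wide spread. It stood at 563, 133 and 600.3 in AAV-GFP libraries 1 to 3 and at 173, 385 and 204 after AAV-NDNF. The lowest of the 6 libraries was a control. The controls alone covered a 4.52-fold range, and the difference of −0.57 (SE 0.63, 95% interval −2.09 to 0.94) was smaller than its error (limma adjusted p = 0.997, exact permutation p = 0.5). Without AAV-GFP library 2 it was −1.28 (limma adjusted p = 0.233), with both remaining controls above every treated library. Without AAV-GFP library 1 or 3 it was −0.24 or −0.20. The sign held in these omissions, and the size rested on which control was kept.

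Cxcl16 is a transmembrane chemokine that is shed by the protease ADAM10, binds CXCR6 and also acts as a scavenger receptor on phagocytes. It stood at 168, 201 and 177 in AAV-GFP libraries 1 to 3 and at 144, 151 and 127 in AAV-NDNF libraries 1 to 3. All treated libraries were below all controls, by a narrow gap between 151 and 168. The means were 182 ± 17.3 and 141 ± 12.2, and the log2 fold change was −0.37 (SE 0.18, 95% interval −0.76 to 0.02, limma adjusted p = 0.997). The exact permutation p was 0.1. Unlike for Cxcl10, the control with the highest Cxcl16 was library 2. Adam10 stood at 1768 ± 70.7 and 1666 ± 57.6 and its groups overlapped. Cxcr6, at 13.5 ± 6.24 and 12.2 ± 7.65, also overlapped.

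**Figure D2:**
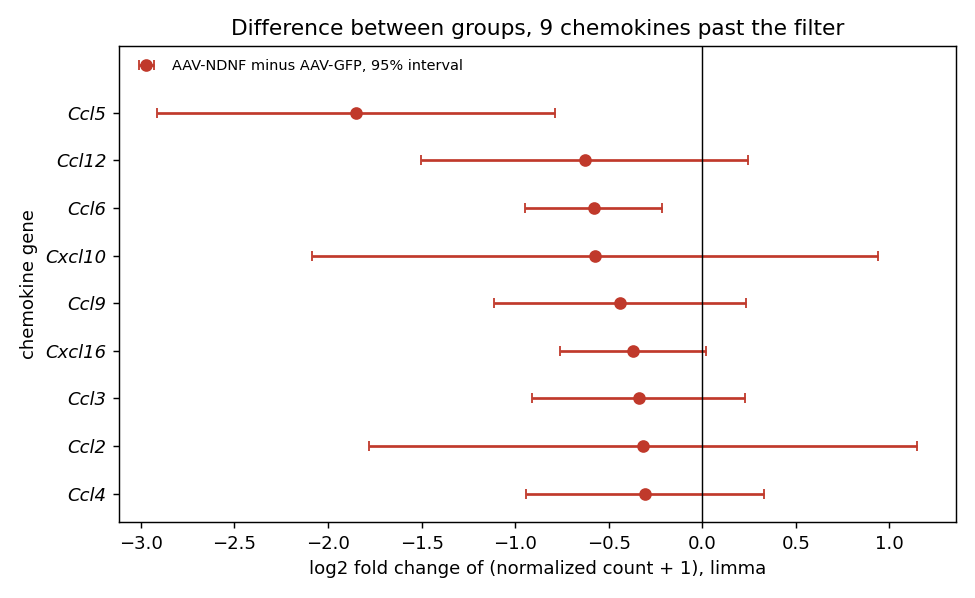
Log2 fold change (AAV-NDNF minus AAV-GFP, on normalized count + 1) of the 9 chemokines that passed the filter, each point with its 95% interval from limma; the vertical line marks no difference. All 9 points lie below 0, and the intervals of Ccl5 (−2.91 to −0.79) and Ccl6 (−0.94 to −0.22) end below it.

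**Figure D3:**
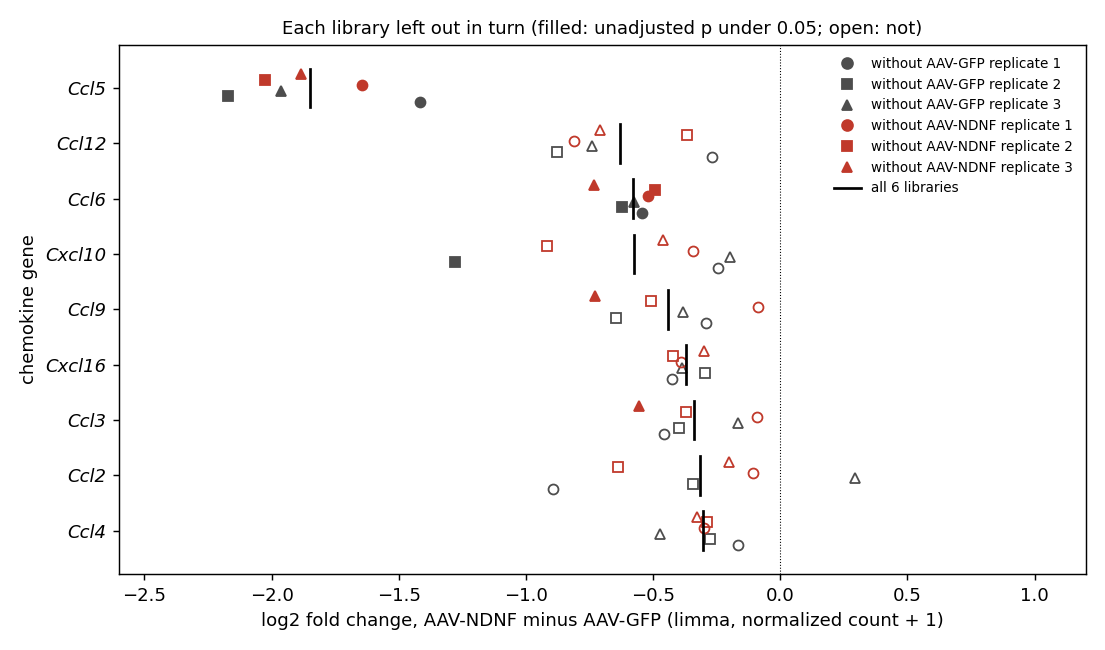
Log2 fold change of each chemokine when 1 library is left out; grey symbols leave out an AAV-GFP library and red symbols an AAV-NDNF library, filled symbols have an unadjusted limma p under 0.05, and the black bar is the value with all 6 libraries. Ccl5 and Ccl6 stay filled throughout, Cxcl10 moves to −1.28 without AAV-GFP library 2, and Ccl2 crosses 0 without AAV-GFP library 3.

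Levels of different genes were compared per kilobase of the main protein-coding transcript (GENCODE M21). In controls the order of these normalized counts per kilobase was Cxcl10 (395 ± 237), Ccl6 (245 ± 13.02), Ccl3 (224 ± 50.2), Ccl12 (97.5 ± 47.1), Ccl5 (83.8 ± 48.8), Ccl4 (79.2 ± 16.7), Ccl9 (68.2 ± 16.4), Cxcl16 (67.5 ± 6.39), Ccl2 (20.5 ± 17.0) and Cxcl13 (5.94 ± 5.16). Neighbours in the upper group of 3 lay within their spread, as did the 5 genes from Ccl12 to Cxcl16. After AAV-NDNF the top 3 were again Cxcl10 (232 ± 105), Ccl3 (180 ± 56.5) and Ccl6 (165 ± 31.4), which lay within their spread. Ccl5 stood at 20.1 ± 5.60 there, between Cxcl16 (52.1 ± 4.54) and Ccl2 (13.6 ± 6.24).

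Receptors of these chemokines were mostly scarce. The list counted here holds chemokine receptors in general, also those of chemokines outside the set. Of 23 receptor genes listed, 20 were in the table and 9 could be tested. Of these 9, 7 were below 0 and 2 above, with a median log2 fold change of −0.17. Over all tested genes 3.53% were lower with an unadjusted p under 0.05, and among the 9 receptor genes 1 was. That gene was Cx3cr1, the fractalkine receptor of microglia, at 2177, 2200 and 2184 in controls, against 1828, 1614 and 1559 after AAV-NDNF (a log2 fold change of −0.40, SE 0.11, limma adjusted p = 0.549). Cx3cr1 is not a receptor of the 10 chemokines, and it is counted again among the microglia markers below. Ccr1 (0.977 to 7.14 in controls, 0 to 15.8 after AAV-NDNF) and Cxcr3 (3.91 to 12.8, and 1.10 to 14.3) did not pass the filter. The abundant scavenging receptors Ackr1, at 650 ± 31.0 and 695 ± 99.2, and Ackr4, at 234 ± 33.8 and 219 ± 36.1, overlapped between groups.

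Of 10 genes for signalling below the receptors or for cleavage of chemokines, 7 were below 0 and 3 above, with a median log2 fold change of −0.07. Over all tested genes 3.53% were lower with an unadjusted p under 0.05, and among these 10 genes 1 was. This was Dock2, a guanine nucleotide exchange factor that drives leukocyte migration. It stood at 424, 367 and 362 in controls, against 259, 257 and 214 after AAV-NDNF (a log2 fold change of −0.66, SE 0.15, limma adjusted p = 0.489). The G protein subunits Gnb1 (6653 ± 265 and 6799 ± 311) and Gnai2 (4503 ± 269 and 4041 ± 177) and the kinase Grk2 (2486 ± 159 and 2498 ± 52.1) were the 3 most abundant, and none of them had an unadjusted limma p under 0.05.

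The other chemokines did not show the downward direction of the 9, but both lists were chosen with earlier results of these data known. No conclusion is drawn from the contrast. Of 29 listed, 23 were in the table and 10 could be tested: 4 were below 0 and 6 above, with a median log2 fold change of 0.04. The abundant ones are made by neurons, astrocytes or vessels at rest. Cx3cl1 (fractalkine) stood at 2677 ± 180 in controls and 2781 ± 141 after AAV-NDNF, Cxcl14 at 1406 ± 6.96 and 1321 ± 152, and Cxcl12 at 1194 ± 267 and 1124 ± 197, none beyond the spread. Over all tested genes 3.53% were lower with an unadjusted p under 0.05. Only Cxcl9, a second CXCR3 ligand, which is induced by interferon gamma, had such a p among these 10. It stood at 49.1, 19.5 and 58.7 in controls, against 30.3, 10.1 and 1.10 after AAV-NDNF (a log2 fold change of −2.13, SE 0.84, limma adjusted p = 0.994). As for Cxcl10, AAV-GFP library 2 was its lowest control. Whether the 9 chemokines and these 10 differed from each other was not tested.

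**Figure D4:**
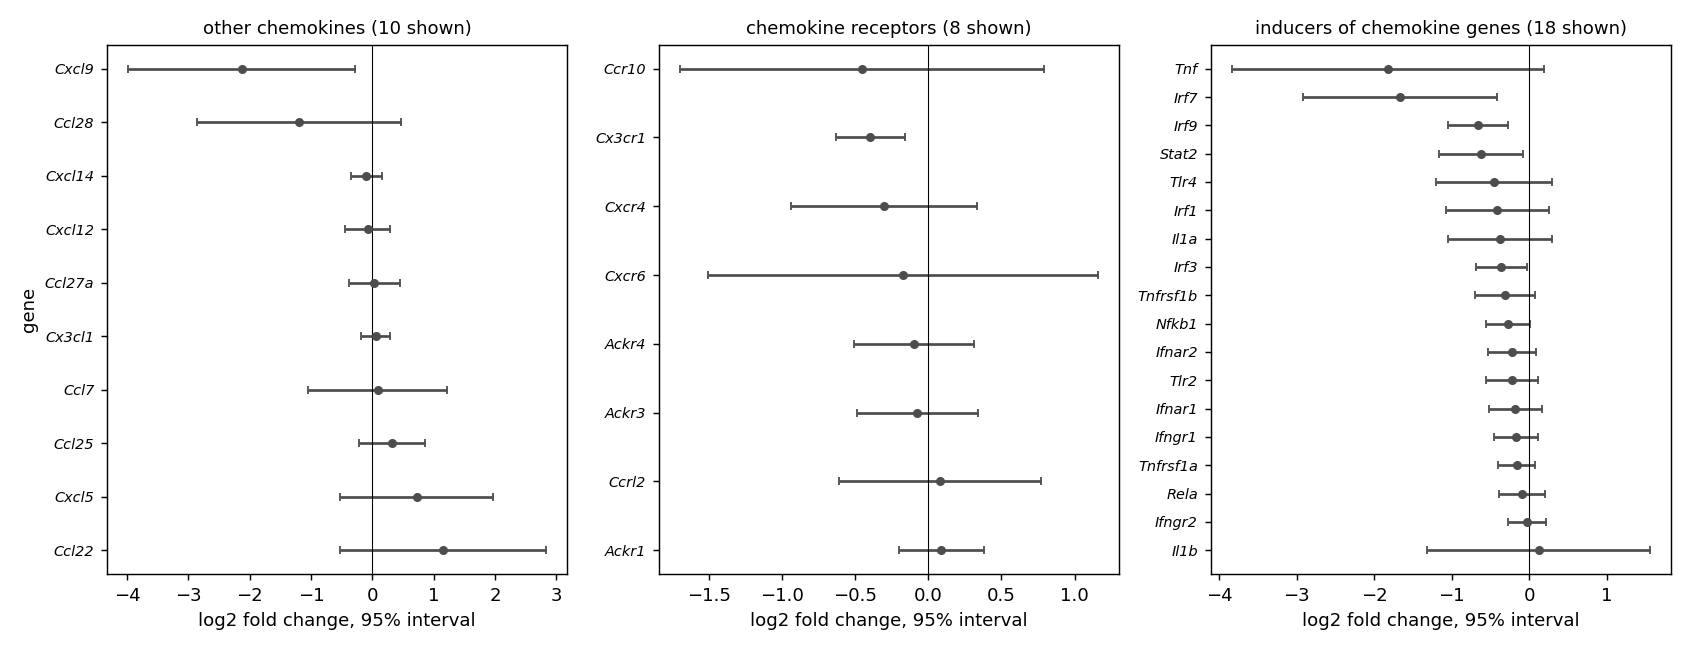
Log2 fold change (AAV-NDNF minus AAV-GFP, on normalized count + 1) with its 95% limma interval for tested genes of 3 related lists, namely other chemokines, chemokine receptors and inducers of chemokine genes, with 1 gene of each of the last 2 lists not shown; the vertical line marks no difference. The first 2 lists lie on both sides of 0, and the inducers shown lie below it except Il1b.

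Most regulators that switch on chemokine genes had a lower mean after AAV-NDNF. Of 20 inducer genes in the table, 19 could be tested: 18 were below 0 and 1 above, with a median log2 fold change of −0.31. Over all tested genes 49.9% were below 0, and 3.53% were lower with an unadjusted p under 0.05. Of the 19 inducers, 5 had such a p. They included the interferon pathway factors Irf3, Irf7, Irf9 and Stat2. Irf7, which amplifies the type I interferon response, stood at 564, 144 and 595 in controls, against 118, 160 and 78.9 after AAV-NDNF (a log2 fold change of −1.67, SE 0.54, limma adjusted p = 0.902). It shows the low AAV-GFP library 2 seen for Cxcl10. Irf9, a DNA-binding factor of the interferon response, did not overlap between groups, at 446 to 607 in controls and 275 to 390.2 after AAV-NDNF (limma adjusted p = 0.549). The cytokine Tnf was 9.77 to 14.3 in controls and 0 to 11.3 after AAV-NDNF, and Il1b, the single inducer above 0, was 6.25 to 13.9 and 4.38 to 18.0. No Ifng or Ifnb1 value was analysed here.

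Cxcl10 and Ccl5 were set beside the interferon response of the same libraries. That score was 0.56, −1.13 and 0.57 in AAV-GFP libraries 1 to 3 and −1.40, −0.96 and −1.73 after AAV-NDNF, with 19 of 19 tested genes below 0. Over the 6 libraries, the median Pearson correlation with the 19 genes was 0.87 for Cxcl10 and 0.82 for Ccl5, whereas for the other 7 chemokines it was between 0.27 and 0.59. These values are descriptions: the libraries fall into a high pair (AAV-GFP libraries 1 and 3) and 4 low ones. Ccl5 differed from the score in AAV-GFP library 2, where it was 25.4 and still above all treated libraries, while Cxcl10 there was below them.

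The promoter of Cxcl10 is shown because it holds the letters of 3 regulatory motifs, the interferon element among them. The window runs from 250 bases before to 50 after the RefSeq start (GRCm38.p6, chr5:92348840-92349139, minus strand). Capitals mark, in order, the interferon-stimulated response element (GAAA, any pair of bases, GAAA; at −213 from the start), a pair of NF-kB sites (GGG, any 3 bases, TTCC; at −159 and −104) and an AP-1 site (TGANTCA, at −74).
Cxcl10 promoter: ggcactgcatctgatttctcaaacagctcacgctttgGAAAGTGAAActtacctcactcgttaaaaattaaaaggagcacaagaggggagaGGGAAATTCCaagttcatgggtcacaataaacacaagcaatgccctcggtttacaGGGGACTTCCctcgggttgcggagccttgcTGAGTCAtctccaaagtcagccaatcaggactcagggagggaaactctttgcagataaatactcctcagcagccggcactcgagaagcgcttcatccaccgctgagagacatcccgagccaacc

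Promoter windows of the same length were found for 6 of the 10 chemokines (Ccl3, Ccl6, Ccl9, Ccl12, Cxcl10 and Cxcl13), and both strands were searched; no match overlapped another in Cxcl10. The response element letters occurred in Cxcl10 alone of these 6, and in 3.99% of 27025 genes with a window. The NF-kB letters occurred in Cxcl10 and Ccl9, and in 6.31% of genes. AP-1 letters were also in both, and in 8.97% of genes. The STAT site TTCNNNGAA (9.55% of genes) and the PU.1 site GAGGAAGT (3.69% of genes) occurred in none of the 6 windows. A match is a description of letters, not of binding.

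Ccl6 and Cxcl16 were set beside microglial transcripts, since both genes are known to be expressed by phagocytes. All 12 microglia markers were below 0, 6 with an unadjusted p under 0.05. Over all tested genes 49.9% were below 0, and 3.53% were lower with such a p. The summed level of the 12 markers was 19064 to 19401 in controls and 13985 to 16171 after AAV-NDNF. None of the 12 was at 0 in any library. Per 1000 summed counts of these markers, a ratio chosen after the values were seen, Ccl6 was 19.1, 17.4 and 18.7 in AAV-GFP libraries 1 to 3 and 15.5, 14.7 and 18.0 after AAV-NDNF, so that AAV-NDNF library 3 overlapped the controls. For Cxcl16 the same ratio was 9.49 ± 0.946 in controls and 9.60 ± 1.52 after AAV-NDNF. Ccl5 per 1000 marker counts was 3.82, 1.33 and 1.79 in controls, against 0.541, 0.955 and 0.677 after AAV-NDNF, again without overlap. On that scale 1 of the 9 chemokines, Ccl5, had each AAV-NDNF library below each control, in place of 3. Dividing by a sum that is itself lower after AAV-NDNF raises the ratios there: over all 17480 genes tested, 0.646% separated the groups downwards on that scale and 43.8% upwards, against none of the 9 chemokines upwards.

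All 15 disease-associated microglia markers tested had a log2 fold change below 0, 11 with an unadjusted p under 0.05. Over all tested genes 49.9% were below 0, and 3.53% were lower with such a p. The 15 markers had summed levels of 91832 to 98737 in controls and 67512 to 83123 after AAV-NDNF. Apoe, the most abundant of them, weighs heavily in these sums. It alone stood at 49692, 45664 and 47511 in controls, against 32930, 31559 and 40747 after AAV-NDNF. Markers of border macrophages and monocytes summed to 115 to 239 in controls and 133 to 149 after AAV-NDNF, with 1 of the 5 tested genes, Ly6c2 of classical monocytes, at an unadjusted p under 0.05 (15.6 to 19.2 in controls and 0 to 6.76 after AAV-NDNF). Ly6c2 passed the filter only through the controls, where it is high, so its p supports nothing. Of the other 4, F13a1 was above 0 (log2 fold change 0.26, groups overlapping) and 3 were below. The 7 astrocyte markers were all below 0, with a median log2 fold change of −0.12. Neutrophil markers were at or near 0, with none of the 6 testable and summed levels of 1.95 to 13.4 and 0.841 to 16.9. The part of each cell type in the chemokine differences was not tested.

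**Figure D5:**
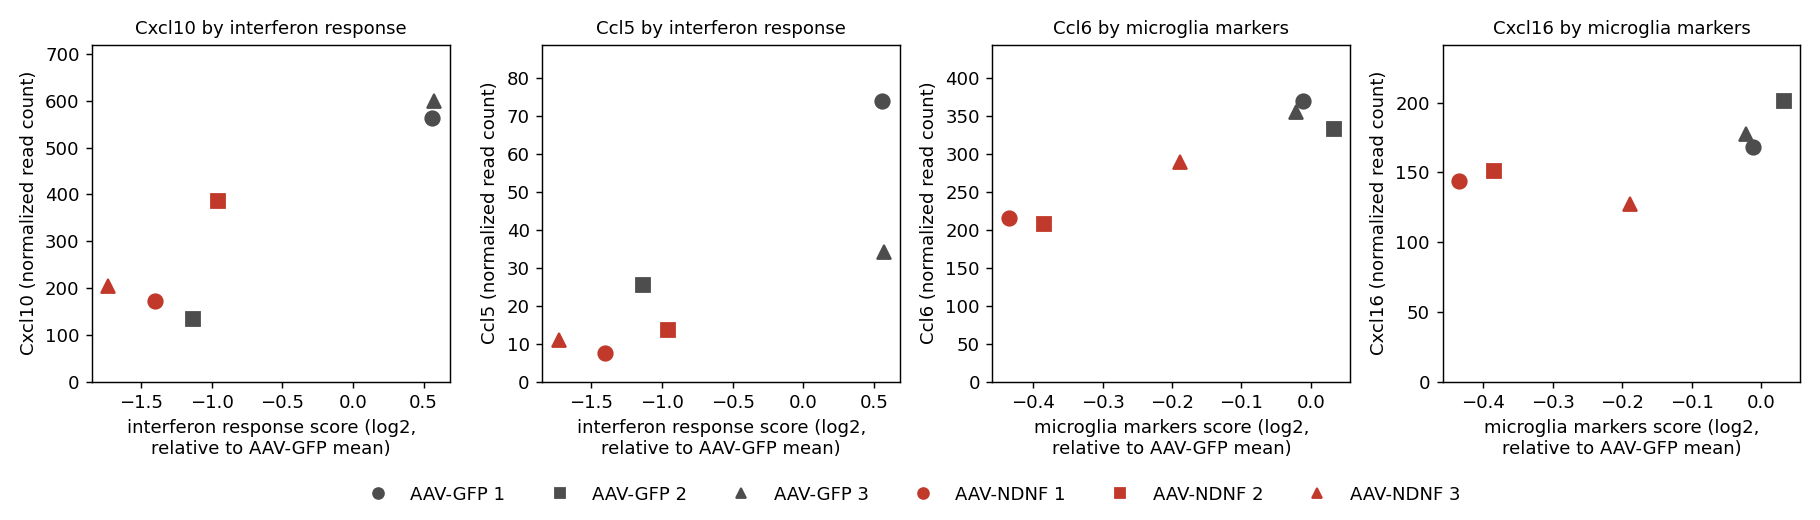
Normalized read counts of Cxcl10 and Ccl5 against the interferon response score, and of Ccl6 and Cxcl16 against the microglia marker score, in the 6 libraries (grey AAV-GFP, red AAV-NDNF, symbols for library number); a score is the mean log2 level relative to the AAV-GFP mean, and vertical axes start at 0. AAV-GFP library 2 lies with the treated libraries in the interferon panels (score −1.13) and with the other controls in the microglia panels (0.03).

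Among themselves, the chemokines fell into loose groups over the 6 libraries, given here as Pearson correlations of log2 levels with no test. The closest pairs were Ccl5 with Ccl6 (0.83), Ccl3 with Ccl9 (0.80) and Ccl4 with Ccl5 (0.75), all within one cluster of chromosome 11. Other pairs within a cluster were not close, such as Ccl3 with Ccl4 (−0.02) and Ccl2 with Ccl12 (−0.51). Cxcl10 was nearest to Ccl9 (0.63) and Ccl5 (0.63), and it had a value of 0.09 with Cxcl16. AAV-GFP library 2 was the lowest control for 5 of the 9 chemokines.

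The genes of most like pattern over all 17480 tested, again over 6 libraries and without a test, differed by chemokine. For Ccl6 they included Apoe (0.999), the lipid carrier of reactive glia, and Aif1 (0.98), which encodes the microglial protein IBA1. For Ccl5 they were led by Fcgr2b (0.985) and included Fcgr3 (0.977), Fc receptors of phagocytes. For Cxcl10 the closest were Wsb1 (0.991) and the interferon-induced kinase gene Cmpk2 (0.99). Cxcl16 lay closest to the protease gene Adam9 (0.992), and Ccl9 to the housekeeping genes Ppib (0.996) and Eef1a1 (0.991). For Ccl2, Ccl3, Ccl4 and Ccl12 the nearest were Gm47059 (0.996), Dap (0.985), Junos (0.984) and Spon2 (0.979). With 6 libraries such values are easily reached: each of the 9 had between 23 and 208 genes at 0.9 or more.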

How the data were processed

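Per the labels' protocols, poly-T selected RNA of 6 lumbar cord samples was sequenced (Illumina NovaSeq). Tools named in the submitters' processing notes were cutadapt, HISAT2, HTSeq, DESeq2 and, as build, mm10; for versions, annotation and strand setting: not given in the sources used here. The deposited per-sample values are a normalized signal: per-gene counts scaled by the authors with 1 size factor per library. Whole reads were recovered from them (100% of values whole, tolerance 0.001). Their comparison table, per the file headers, holds log2 fold changes, a test score and p-values; 54 of 20315 genes with an adjusted p are under 0.05.

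Groups came from the titles and treatments. Tests used limma 3.58.1 (trend, robust, two-sided) in R 4.3.3 on log2(normalized count + 1), restricted to the 17480 genes reaching 10 normalized counts in 3 or more libraries, with Benjamini-Hochberg adjustment over all of them. DESeq2 1.42.0, edgeR 4.0.16 and limma-voom ran on recovered reads as alternatives; the closing section gives their effect. The edgeR test called 0 genes, with 804 at an unadjusted p under 0.05. Scripts were tested on simulated data. No library pair agreed within counting noise. The members and lists were chosen with earlier results of these data known. Text names all 10 chemokines, and from related lists the genes with an unadjusted p under 0.05, the 3 most abundant, the chemokines' receptors and Adam10, and the 3 genes most like each chemokine, in part; a few items under this rule are not reported here; genes of marker lists, Il1b and Tnf were named after their values were seen. Sequences and coordinates come from GENCODE M21 (mm10) and, for promoters, RefSeq (GRCm38.p6).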

Additional observations from a re-analysis of the deposited data

How the results depend on the processing

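Of 152 values of single chemokines over 17 alternatives (11 of method, 6 leaving out a library), 150 were below 0 and 1 was called (Ccl6, limma-voom with quality weights, adjusted p = 0.0186). The 2 that reversed were both Ccl2, at 0.33 with limma-voom and 0.29 without AAV-GFP replicate 3; leaving out 1 library gave Ccl2 −0.90 to 0.29. The changed filters and the replicate block left each log2 fold change of the 9 as it was. Their signs were fixed in advance and add no check to the 150. Of the 9, 8 to 10 were below 0 under each alternative, with Cxcl13 as the tenth when no filter was used. The number of chemokines with an unadjusted p under 0.05, 2, was 4 with limma-voom and 2 to 4 when a library was left out (4 without AAV-NDNF replicate 3). The number whose groups do not overlap, 3, was 3 to 5 when a library was left out (5 without AAV-GFP replicate 2) and 1 per 1000 microglial marker counts. A smaller group separates more easily, and the share over all genes was not computed with a library left out. The rise to 5 is therefore not read as a stronger separation. The number too low to compare, 1, was 0 with no filter and 2 with a filter at 20. Over all genes, calls rose from 0 to 55 with DESeq2, 165 with limma-voom, 3 with no filter and 6 with a replicate block, and were 0 to 43 when a library was left out (43 without AAV-GFP replicate 2, 11 without AAV-NDNF replicate 3, 1 without AAV-NDNF replicate 1). Genes with an unadjusted p under 0.05, 818, numbered 2433 with limma-voom, 1242 with no filter and 544 to 1535 when a library was left out (544 without AAV-GFP replicate 1, 1535 without AAV-NDNF replicate 1). No filter tests more genes; for the other settings the cause was not tested. The replicate numbers showed no sign of pairing the samples: deviations of same-numbered libraries correlated at −0.09, 0.05 and 0.08. With 3 libraries per group these values cannot exclude a pairing. The replicate block called no chemokine. Depth limits Ccl2 (6 to 30 reads), Cxcl13 (0 to 11 reads) and Ccl5 after AAV-NDNF (9, 12 and 10 reads).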
